A study of Homo sapiens with 32 samples.

Results

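Expression of 31 target genes of the transcription factor p53 was followed in HCT116 cells, a human colorectal carcinoma line, after loss of IGF2BP3 or IGF2BP2 and under tunicamycin. The genes are a list of established p53 targets, matched by symbol and put together with earlier results of these data known, and all 31 were found among the 60660 rows of the count table. The effect of each knockout was compared clone by clone, and the effect of tunicamycin was compared within each genotype. Poly(A)-selected RNA had been sequenced in 32 libraries. All lines, parental cells included, carried a doxycycline-inducible OsTIR1 transgene. Parental cells were represented by 2 samples, IGF2BP3 knockout cells by clones A3, D12 and E4, and IGF2BP2 knockout cells by clones B7, F6 and G6, each with 2 libraries in DMSO and 2 in tunicamycin. The groups thus held 4 parental, 6 IGF2BP3 knockout and 6 IGF2BP2 knockout libraries per treatment. Tunicamycin had been given at 5 µg/mL for 4 h to IGF2BP3 knockout and parental cells, and the labels state no dose or time for IGF2BP2 knockout cells. Each knockout line was grown from 1 sorted cell after transient transfection of a plasmid encoding Cas9 and GFP, so the libraries of a clone are not independent knockouts, and p-values measure the spread between libraries, which may be technical.

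p53 is a DNA-binding protein that accumulates and becomes active after DNA damage and other stress, and HCT116 cells carry it in wild-type form. It binds a response element made of a pair of decamers and switches on genes that stop the cell cycle, repair DNA, alter metabolism or set off cell death. One of these genes, MDM2, encodes the ubiquitin ligase that marks p53 for degradation and so closes a feedback loop. IGF2BP2 and IGF2BP3 are RNA-binding proteins of one family that bind messenger RNAs and affect their stability and translation. Tunicamycin blocks N-linked glycosylation, which burdens the endoplasmic reticulum with misfolded protein and starts the unfolded protein response.

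The guides used for the knockouts are shown because clones of one gene did not all share a guide. They were read from the protocol text and are written 5′ to 3′ without the PAM.
IGF2BP3, clones E4 and A3: tggcaccgactgatagagct
IGF2BP3, clone D12: acgcgtagccagtcttcacc
IGF2BP2, clones F6 and B7: gagctgccggaggtcgtcgg
IGF2BP2, clone G6: aggcgtagccggacttcagc
Within each knockout, 2 clones shared a guide and the third had another, so guide and clone cannot be told apart for D12 and G6.

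Promoters were searched for the p53 response element because it is the sequence through which the listed genes are known to respond. RefSeq promoters on GRCh38.p14, from 250 bases before to 50 bases after the start site, were available for 24 of the 31 genes and not for ASCC3, CMBL, FBXO22, PHLDA3, RRM2B, TP53INP1 and TRIM22. The p53 consensus was searched as 2 adjacent copies of the decamer with its 4 core C and G positions intact and at most 3 departures elsewhere. The consensus reads the same on both strands, so 1 search covers both. Such a match was present in 5 of the 24 promoters (20.8%) and in 373 of 27305 genes (1.37%). The 5 matches are shown with 5 bases on each side, in the direction of the gene, with the matched 20 bases in capitals.
AEN, chr15:88621301-88621330, plus strand: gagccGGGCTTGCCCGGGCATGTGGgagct
DDB2, chr11:47214964-47214993, plus strand: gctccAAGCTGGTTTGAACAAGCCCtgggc
FDXR, chr17:74872991-74873020, minus strand: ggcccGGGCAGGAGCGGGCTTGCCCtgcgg
MDM2, chr12:68808918-68808947, plus strand: gagctGGTCAAGTTCAGACACGTTCcgaaa
RPS27L, chr15:63157522-63157551, minus strand: aggagGGCCTAGAGCAGACAAGCCCgcccc
The match in DDB2 departed from the consensus at 1 position and crossed the start site. Those in AEN and MDM2 departed at 2 positions, and those in FDXR and RPS27L at 3. A match describes letters in this window and does not show binding. Of these 5 genes, MDM2 alone was called in the pooled comparison of IGF2BP3 knockout with parental cells described next. In that comparison 5 of all 28 tested members were called, MDM2 included.

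Each library held between 16651438 and 24913021 counts (median 21441775.5). Of the 31 genes, 28 had enough counts to be tested in the comparisons. SPATA18 and EDA2R had 10 counts each over all 32 libraries and TRIM22 had 144, and these 3 were not tested. All 6 epithelial markers were present, and 7 of 8 blood, endothelial and fibroblast markers averaged under 1 CPM (counts scaled to a common library size after TMM normalization). IGF2BP3 mRNA stood at 76.7 ± 7.22 CPM (SD, n = 4) in parental and 27.7 ± 10.8 CPM (SD, n = 6) in IGF2BP3 knockout libraries in DMSO. The fall was smaller in D12 (log2 fold change -0.89) than in A3 (-1.84) and E4 (-1.92), and IGF2BP3 differed among the clones with an adjusted p of 8.59e-05 in edgeR's test of the difference. IGF2BP2 mRNA stood at 176 ± 19.9 CPM (SD, n = 4) in parental and 86.9 ± 5.33 CPM (SD, n = 6) in IGF2BP2 knockout libraries in DMSO. The G6 control libraries are titled as controls, but a treatment label calls them tunicamycin. Their HSPA5 level, which rises with endoplasmic reticulum stress, was 816 to 999.6 CPM, against 9624 to 9817 CPM in the G6 tunicamycin libraries, and they were used as DMSO libraries.

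In DMSO, IGF2BP3 knockout cells had more mRNA of 5 p53 targets than parental cells: BTG2, PHLDA3, CDKN1A, MDM2 and PLK3. No listed gene was called lower. Libraries of the same replicate number deviated together (median r 0.52, above 0.1 in 116 of 120 pairs), but the fits had no replicate block. With such a block many counts of called members rose, as given in the closing section, so low counts below hold for fits without it. A gene was called at an adjusted p under 0.05 in the quasi-likelihood test of edgeR, adjusted over all genes by the Benjamini-Hochberg method. By that rule 1.61% of all 14568 tested genes were called in either direction and 0.515% were called higher, against 5 of 28 members. The median log2 fold change was 0.12 over the 28 members and 0.0029 over all genes, and 24 of the 28 values were above 0. All 6 knockout libraries lay above all 4 parental libraries for 8 members, the 5 called genes together with BLOC1S2, RPS27L and PPM1D, while this held for 1.63% of all genes. In bulk RNA, a change in the share of cells expressing a gene and a change in the RNA per cell cannot be told apart.

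By role, the called genes were 3 of 6 tested cell cycle genes, 1 of 2 feedback genes and 1 of 6 survival and death genes. CDKN1A (chromosome 6, 36676460 to 36687339, plus strand, GRCh38) encodes p21, the cyclin-dependent kinase inhibitor that holds cells in G1. Its parental DMSO levels were 118, 119, 124 and 130.0 CPM, and the 6 IGF2BP3 knockout libraries ran from 141 through a median of 178 to 197 CPM. Every knockout library was above every parental one, with the lowest values in D12. The log2 fold change was 0.48 (SE 0.0875, edgeR adjusted p 0.0137). BTG2 (chromosome 1, 203305491 to 203309602, plus strand), an antiproliferative cofactor of mRNA deadenylation, stood at 20.1, 21.1, 23.6 and 24.8 CPM in parental libraries. The knockout libraries ran from 29.8 through a median of 32.3 to 36.3 CPM, without overlap, and the log2 fold change was 0.54 (SE 0.0657, edgeR adjusted p 0.00117). PLK3 (chromosome 1, 44800225 to 44805990, plus strand), a polo-like kinase of stress checkpoints, stood at 35.9, 36.1, 36.5 and 37.8 CPM in parental libraries and ran from 40.4 through 42.9 to 45.0 CPM in the knockout. This difference was the smallest of the 5, at a log2 fold change of 0.23 (SE 0.0473, edgeR adjusted p 0.0272).

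Of the 2 feedback genes, MDM2 (chromosome 12, 68808176 to 68850686, plus strand) was higher in the IGF2BP3 knockout. Parental DMSO levels were 118, 119, 121 and 127 CPM, and knockout levels ran from 132 through a median of 148 to 159 CPM. The groups did not overlap, and the log2 fold change was 0.26 (SE 0.0595, edgeR adjusted p 0.0415). PPM1D, which encodes the phosphatase Wip1 that dampens p53 signaling, ran from 53.7 to 58.0 CPM in parental and from 61.4 to 78.3 CPM in knockout libraries. Its log2 fold change of 0.29 (SE 0.0704) missed the threshold at an adjusted p of 0.0557 in the edgeR test. PHLDA3 (chromosome 1, 201464383 to 201469237, minus strand) encodes a repressor of the kinase AKT. Its parental levels were 16.7, 18.2, 18.4 and 18.7 CPM, and its knockout levels ran from 22.8 through 25.0 to 28.7 CPM, again without overlap. The log2 fold change was 0.49 (SE 0.0734, edgeR adjusted p 0.00425).

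None of the 4 metabolic, 5 DNA repair and nucleotide, 2 autophagy and 3 remaining tested genes was called in this comparison. The largest value among them was 0.33 (SE 0.16) for TP53INP1, an autophagy and stress gene. TIGAR, which lowers glycolytic flux, had 0.07 (SE 0.119), and XPC, a damage sensor of nucleotide excision repair, had 0.04 (SE 0.066). PLK2, a polo-like kinase of the cell cycle group, had the lowest value, -0.29 (SE 0.0832, edgeR adjusted p 0.109).

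The 5 calls differed in how far they depended on single lines. BTG2 was called in all 14 alternatives, including counts summed per line (edgeR adjusted p 0.0236). PHLDA3 lost its call when counts were summed per line (0.0512) or all 32 libraries were fitted together (0.0845), and CDKN1A lost it in both of those (0.122 and 0.0989) and without replicate 1 of parental sample 1 (0.0643). MDM2 lost its call without A3 (0.1), without E4 (0.103) and without each parental library (0.0557 to 0.144), and PLK3 without D12 (0.0609), without E4 (0.0706) and without each parental library (0.0633 to 0.112). With all 32 libraries fitted together or counts summed per line, MDM2 (0.263 and 0.159) and PLK3 (0.613 and 0.159) lost their calls too, as did PLK3 with no filter on low counts (0.0597). The count of 5 became 4 without A3, 6 without D12, 3 without E4, 2 without replicate 1 of parental sample 1 and 3 without any other parental library. DESeq2 called 10 members, against 1 in edgeR with all 32 libraries or with counts summed per line. The share of all genes called by DESeq2 is not given here or below, so its counts of members have no baseline.

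**Figure D1:**
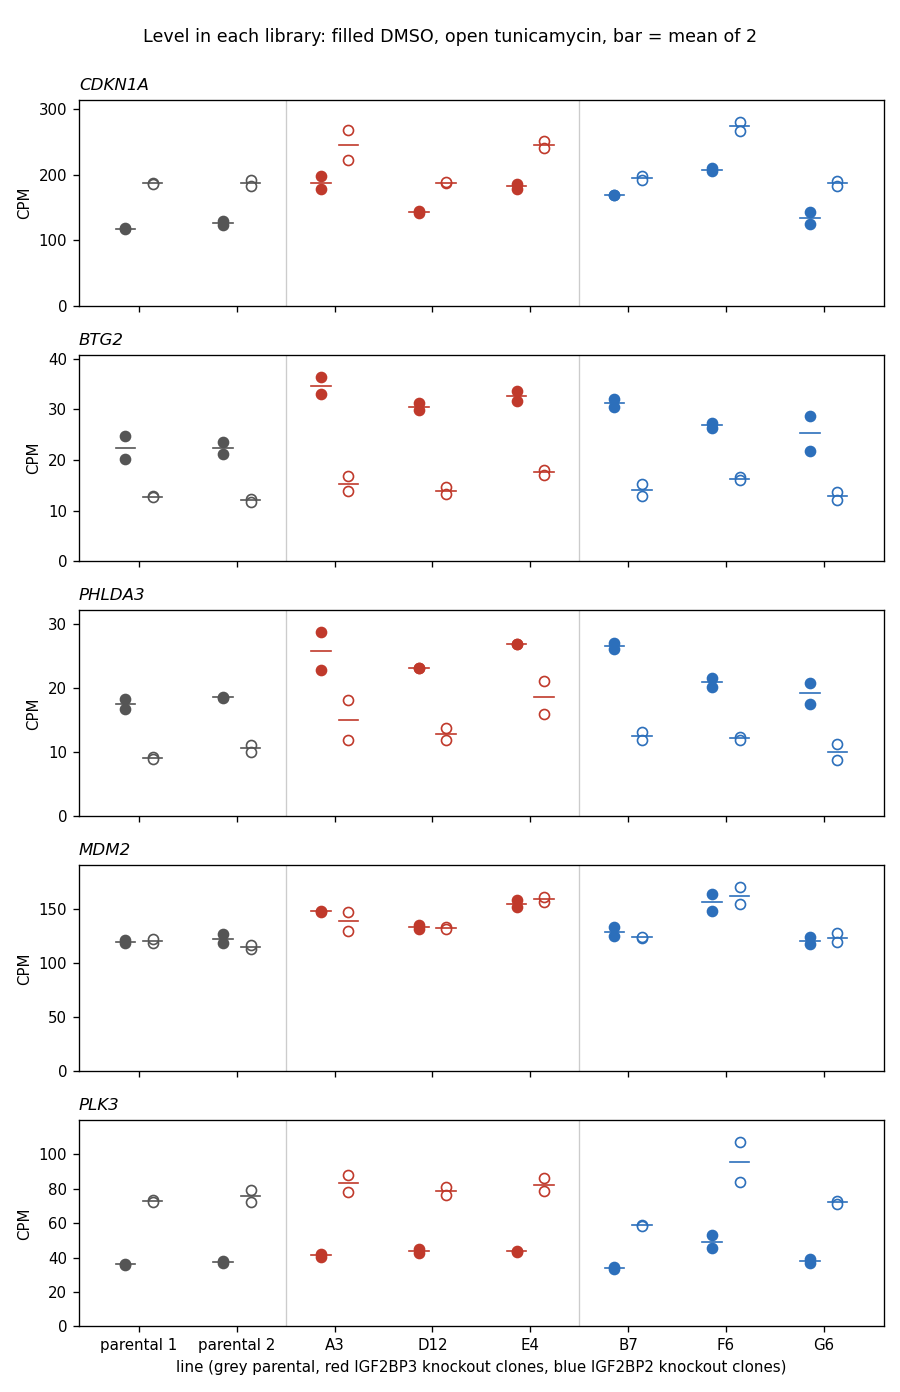
Normalized CPM (vertical axes, from 0) of 5 p53 target genes in each of the 32 libraries, by line (grey parental, red IGF2BP3 knockout, blue IGF2BP2 knockout), with filled points for DMSO, open points for tunicamycin and a bar at the mean of the 2 libraries. CDKN1A ran from 118 to 130.0 CPM in parental DMSO libraries and from 141 to 197 CPM in IGF2BP3 knockout ones.

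In tunicamycin, no member was called between IGF2BP3 knockout and parental cells by edgeR, with 12 members at an unadjusted p under 0.05 and 2 called by DESeq2. The share of all genes called by edgeR was 0.718%, and 10.3% had an unadjusted p under 0.05. The median over members was 0.13 on the log2 scale, and 24 of 28 values were above 0. PHLDA3 had the largest value, 0.66 (SE 0.154, edgeR adjusted p 0.0866), with parental levels of 8.87, 9.27, 9.97 and 11.2 CPM and knockout levels from 11.9 through a median of 14.9 to 21.2 CPM. MDM2 had 0.29 (SE 0.0729, adjusted p 0.118) and BTG2 had 0.34 (SE 0.0927, adjusted p 0.15) in the same edgeR fit. The knockout libraries lay above the parental ones without overlap for these 3 genes and for FBXO22, a ubiquitin ligase subunit, 4 of 28 members against 1.05% of all genes. CDKN1A had 0.28 (SE 0.0899, adjusted p 0.27 by edgeR), with 187 ± 4.05 CPM (SD, n = 4) in parental and 226 ± 33.1 CPM (SD, n = 6) in knockout libraries. Without D12, 1 member was called. Members were also called with a replicate block.

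Between IGF2BP2 knockout and parental cells in DMSO, no member was called by edgeR, with 11 at an unadjusted p under 0.05 and 1 called by DESeq2. Only 0.0137% of all genes were called by edgeR, and 4.74% had an unadjusted p under 0.05. The median over members was 0.10 on the log2 scale and 25 of 28 values were above 0. CDKN1A ran from 125 through a median of 169 to 209.6 CPM in the knockout, overlapping the parental range. Its log2 fold change, 0.47 (SE 0.125, edgeR adjusted p 0.983), was close in size to that of the IGF2BP3 knockout but had a larger SE. CCNG1, a p53-induced cyclin, had the lowest adjusted p, 0.663 by edgeR, at a log2 fold change of 0.23 (SE 0.0493). All 6 knockout libraries lay above all 4 parental ones for CCNG1, ZMAT3 and BLOC1S2, 3 of 28 members against 0.563% of all genes. Without G6, 1 member was called.

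In tunicamycin the IGF2BP2 knockout again gave no called member in edgeR, with 8 at an unadjusted p under 0.05 and 1 called by DESeq2. By edgeR, 0.00694% of all genes were called and 6.97% had an unadjusted p under 0.05. TP53INP1 had a log2 fold change of 0.53 (SE 0.11), RRM2B, a ribonucleotide reductase subunit, 0.38 (SE 0.134) and MDM2 0.23 (SE 0.0962), each at an adjusted p of 0.695 by edgeR. The RRM2B value came mostly from B7, with 0.72 in that clone against 0.16 in F6 and 0.15 in G6. Without G6, 1 member was called here too.

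The knockouts were then set against each other, and both comparisons with parental cells used the same parental libraries. No member was called by edgeR between IGF2BP3 and IGF2BP2 knockout cells in DMSO (8 at an unadjusted p under 0.05, 3 called by DESeq2) or in tunicamycin (10 and 3). Of all genes, 0.589% and 0.391% were called by edgeR, and 14% and 14.7% had an unadjusted p under 0.05. CDKN1A differed by 0.01 on the log2 scale in DMSO. The nearest to a call was CYFIP2, a subunit of the actin-regulating WAVE complex. CYFIP2 was lower in the IGF2BP3 knockout in DMSO without passing the threshold (log2 fold change -0.36, SE 0.0768, edgeR adjusted p 0.0502). ZMAT3, an RNA-binding zinc finger protein, had -0.20 (SE 0.0526, adjusted p 0.0944) in DMSO and -0.24 (SE 0.0557, adjusted p 0.0705) in tunicamycin in the same edgeR fits. Without G6, 2 members were called in each treatment, and without F6, 1 was called in DMSO. A replicate block gave calls in both treatments.

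The clones of a knockout differed in which p53 targets were called. In DMSO, the number of members called against parental cells in edgeR was 4 in A3 (1.75% of all genes called), 1 in D12 (1.77%), 9 in E4 (3.87%), 7 in B7 (6.21%), 5 in F6 (5.08%) and 0 in G6 (0.249%). Every called member was higher than in parental cells except PLK2, which was lower in E4. For G6, 6 members had an unadjusted p under 0.05 (7.1% of all genes) and DESeq2 called 0, but with a replicate block members were called there. CDKN1A, BTG2, RRM2B, PHLDA3, TP53INP1, RPS27L, PPM1D, BLOC1S2, ASCC3 and SUSD6 had a log2 fold change above 0 in all 6 clones in DMSO, while MDM2 was above 0 in 5, with -0.0030 in G6. The share of all genes above 0 in all 6 clones was not computed, so this agreement in sign has no baseline. CDKN1A and BTG2 were called in 4 clones each, PHLDA3 and MDM2 in 3 each. Each fit held all 16 libraries of a treatment, so the clones shared 1 estimate of the spread and the same 4 parental libraries.

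Among IGF2BP3 knockout clones in DMSO, A3 was higher for BTG2 (log2 fold change 0.63), CDKN1A (0.62), PHLDA3 (0.52) and MDM2 (0.29). E4 was higher for TP53INP1 (0.60), PHLDA3 (0.58), CDKN1A (0.57), BTG2 (0.54), PPM1D (0.46), MDM2 (0.36), POLH (0.30) and PLK3 (0.25). PLK2 fell in E4 by 0.47 on the log2 scale. Only BTG2 was called in D12 (0.44, edgeR adjusted p 0.0166), where CDKN1A had 0.22 (adjusted p 0.11). With a replicate block more members were called in D12. The 3 clones differed from one another in 1 member, CDKN1A, with an adjusted p of 0.00782 in the edgeR test of the difference, against 2.81% of all genes called. More members differed among the clones with the block. CDKN1A stood at 197 and 178 CPM in A3, 179 and 186 CPM in E4 and 141 and 145 CPM in D12, which was also the clone with the smaller fall of IGF2BP3 mRNA. Whether the remaining IGF2BP3 mRNA bears on the CDKN1A level was not tested.

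IGF2BP2 knockout clones differed from one another in 9 members in DMSO, against 12.2% of all genes. F6 was higher than parental cells for CDKN1A (0.75), RPS27L (0.42), PLK3 (0.42), MDM2 (0.36) and CCNG1 (0.29). B7 was higher than parental cells for TP53INP1 (1.02), RRM2B (0.78), PHLDA3 (0.54), CYFIP2 (0.54), BTG2 (0.46), CDKN1A (0.45) and FDXR (0.27). Of these genes, RPS27L, CCNG1, CYFIP2 and BTG2 were not among the 9 that differed among the clones. CDKN1A stood at 205 and 209.6 CPM in F6, 168 and 169.8 CPM in B7 and 144 and 125 CPM in G6, where its log2 fold change was 0.14 (SE 0.0616, edgeR adjusted p 0.686). The difference among the 3 clones had an adjusted p of 0.000105 for CDKN1A and 0.000405 for PLK3 in the edgeR test. PLK3 stood at 53.3 and 45.3 CPM in F6 and 33.1 and 34.7 CPM in B7. Both B7 libraries thus lay below the parental range of 35.9 to 37.8 CPM, though PLK3 was not called lower in B7.

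In tunicamycin the number of members called was lower in 4 clones and the same in F6 and G6, and this difference between treatments was not tested. It was 1 in A3 (1.06% of all genes), 0 in D12 (1.15%), 7 in E4 (2.7%), 2 in B7 (4.13%), 5 in F6 (3.57%) and 0 in G6 (0.18%). In D12, 2 members had an unadjusted p under 0.05 (9.58% of all genes), in G6 4 had (6.99%), and DESeq2 called 0 in both. CDKN1A was higher in A3 (log2 fold change 0.38), E4 (0.39) and F6 (0.55). B7 was higher for RRM2B (0.72) and TP53INP1 (0.64), which both lie on chromosome 8. E4 was also higher for PHLDA3 (0.92), TP53INP1 (0.65), BTG2 (0.51), MDM2 (0.43), PPM1D (0.41) and POLH (0.40), and F6 for TP53INP1 (0.60), MDM2 (0.47), BTG2 (0.41) and PLK3 (0.37). The difference among clones was called for 5 members in IGF2BP2 knockout (7.82% of all genes) and for 1, CDKN1A, in IGF2BP3 knockout (1.69%). With a replicate block both numbers were higher.

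These counts moved when single libraries were left out. E4 in DMSO went from 9 to 5 without its replicate 1, to 3 without its replicate 2, and to 5 without replicate 1 of either parental sample, and E4 in tunicamycin went from 7 to 2 without either of its libraries. A3 went from 4 to 2 in DMSO and from 1 to 0 in tunicamycin without its replicate 1, and from 1 to 2 in tunicamycin without its replicate 2. D12 in DMSO went from 1 to 0 without either of its libraries, and to 2 without any one library of A3, F6 or G6. F6 went from 5 to 3 in DMSO without its replicate 1, and in tunicamycin from 5 to 2 without its replicate 1, to 3 without its replicate 2 and to 3 without replicate 1 or 2 of parental sample 1 or replicate 2 of parental sample 2. B7 in tunicamycin went from 2 to 1 without its replicate 2. The members that differed among IGF2BP2 knockout clones went from 9 to 5 in DMSO without either library of B7, and from 5 to 3 in tunicamycin without replicate 2 of F6. The call of CDKN1A among IGF2BP3 knockout clones was lost in DMSO without replicate 1 of D12, and the count was 2 without either library of F6. In tunicamycin it was lost without any one library of D12 or E4, without replicate 1 of G6 and without replicate 2 of parental sample 2. With 1 library left in a clone, that library was assumed to vary like the others.

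**Figure D2:**
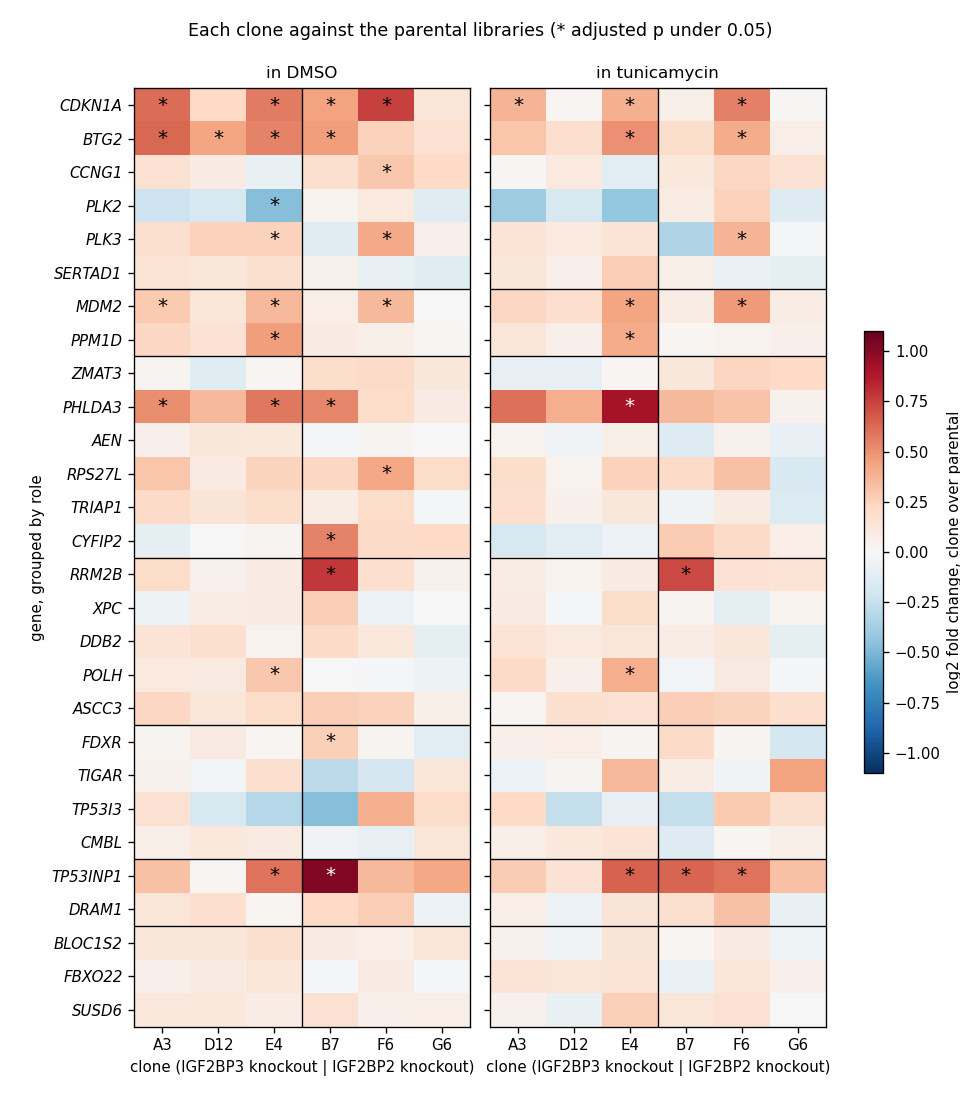
Log2 fold change against parental libraries (colour scale) for the 28 tested members in each of the 6 clones, in DMSO and in tunicamycin, with an asterisk where the edgeR adjusted p was under 0.05. CDKN1A ranged from 0.14 in G6 to 0.75 in F6 in DMSO.

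In DMSO, B7 had the highest RRM2B and TP53INP1 levels of the 6 clones, and both genes lie on chromosome 8. RRM2B stood at 168 and 158 CPM in B7 DMSO libraries against 89.0, 92.4, 93.1 and 101 CPM in parental ones, and TP53INP1 at 19.6 and 20.8 CPM against 7.96, 9.03, 10.4 and 11.9 CPM. The other chromosomes were therefore compared with chromosome 8 in a view chosen after these values were seen, as the difference of log2(CPM + 0.5) from parental libraries over genes of at least 5 CPM. The median over 360 chromosome 8 genes was 0.48 in B7 in DMSO and 0.46 in tunicamycin. The medians of the other chromosomes in B7 ran from -0.0096 to 0.035 in DMSO and from -0.058 to 0.030 in tunicamycin. In the other 5 clones chromosome 8 had medians from -0.047 to 0.022 in DMSO. On the same scale RRM2B, at 0.79, lay above 92.8% of the chromosome 8 genes of B7 in DMSO, and TP53INP1, at 1.02, above 99.2%. In tunicamycin RRM2B in B7, at 0.72, lay above 90.3%, but TP53INP1, at 0.61, lay above 77.5% and was close to its value in E4, 0.62, so B7 did not stand apart for TP53INP1 under tunicamycin. The chromosome 8 shift was thus shared by many genes that are not on the p53 list, and its part in these 2 calls was not tested. Copy number was not measured.

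**Figure D3:**
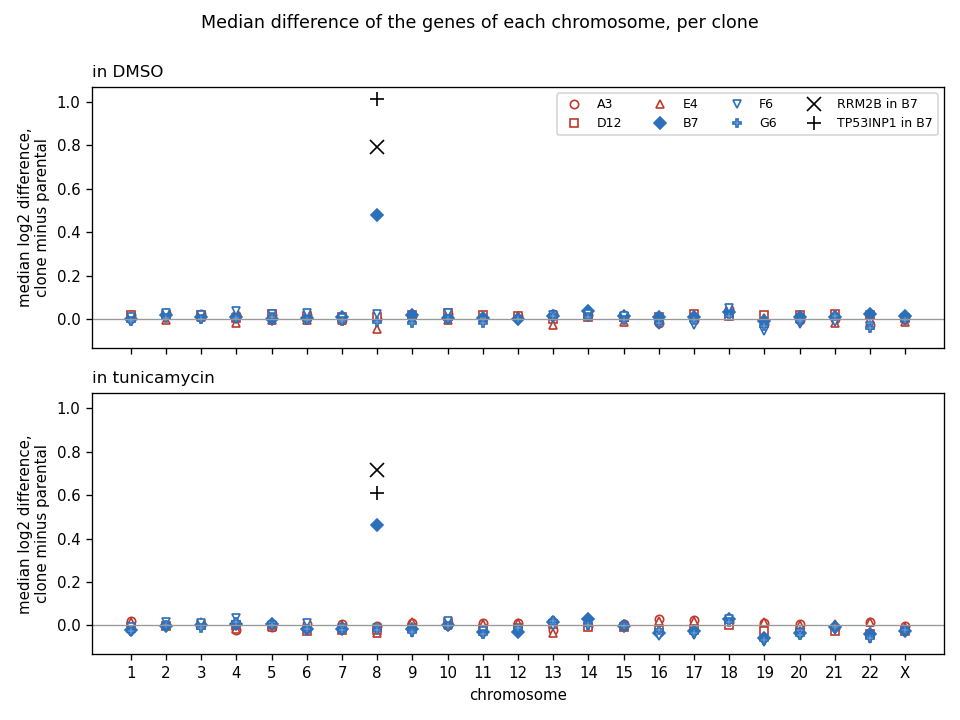
Median difference of log2(CPM + 0.5) between each clone and parental libraries (vertical axis) for each chromosome (horizontal axis), over genes of at least 5 CPM. Chromosome 8 in B7 stood at 0.48 in DMSO and 0.46 in tunicamycin, apart from the other chromosomes of that clone.

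Under tunicamycin, p53 targets were called in both directions within each genotype. In parental cells, 11 of 28 members were called, 4 higher and 7 lower, against 26.8% of all genes (12.5% higher and 14.3% lower). In IGF2BP3 knockout cells, 14 were called, 3 higher and 11 lower, against 33.8% (16.2% and 17.6%). In IGF2BP2 knockout cells, 17 were called, 5 higher and 12 lower, against 40.1% (19.2% and 20.9%). As shares of the 28 members, the higher calls were 14.3%, 10.7% and 17.9% in the 3 genotypes, near or below those of all genes, and the lower calls were 25.0%, 39.3% and 42.9%, above them. The same 9 members were called in all 3 genotypes, while 23.9% of all genes were called in all 3 in 1 direction (11.5% higher and 12.4% lower). CDKN1A, PLK3 and SERTAD1 rose, and BTG2, PHLDA3, POLH, SUSD6, TRIAP1 and ZMAT3 fell. The sign of the log2 fold change was the same in all 3 genotypes for 26 of 28 members and for 78.3% of all genes.

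PLK3 rose most, from 35.9, 36.1, 36.5 and 37.8 CPM in parental DMSO libraries to 72.1, 72.3, 73.3 and 79.2 CPM in tunicamycin. Its log2 fold change was 1.02 (SE 0.0473, edgeR adjusted p 3.57e-07) in parental, 0.94 in IGF2BP3 knockout and 0.91 in IGF2BP2 knockout cells. CDKN1A rose from 118, 119, 124 and 130.0 CPM to 183, 186, 187 and 193 CPM in parental cells, without overlap. Its log2 fold change was 0.62 (SE 0.0452) in parental, 0.41 (SE 0.0463) in IGF2BP3 knockout and 0.38 (SE 0.0475) in IGF2BP2 knockout cells, all called by edgeR. SERTAD1, a regulator of cyclin D kinase and E2F activity, rose from 38.2, 38.5, 38.6 and 44.3 CPM to 48.8, 54.7, 55.0 and 62.9 CPM in parental cells, by 0.47, 0.48 and 0.49 on the log2 scale in the 3 genotypes. For each of these 3 genes both tunicamycin libraries lay above both DMSO libraries in all 8 lines, as did 8.75% of all genes.

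Among the members that fell, BTG2 went from 20.1, 21.1, 23.6 and 24.8 CPM to 11.8, 12.2, 12.6 and 12.8 CPM in parental cells. Its log2 fold change was -0.85 in parental, -1.05 in IGF2BP3 knockout and -0.93 in IGF2BP2 knockout cells, so BTG2 and CDKN1A, both cell cycle genes, went in opposite directions. PHLDA3 had -0.87, -0.71 and -0.91 in the same order. POLH, the translesion DNA polymerase eta, went from 40.1, 41.1, 41.4 and 43.3 CPM to 20.2, 23.5, 24.8 and 25.8 CPM in parental cells, with log2 fold changes of -0.81, -0.75 and -0.77. TRIAP1, a mitochondrial lipid-transfer and survival gene, had -0.32, -0.37 and -0.44. ZMAT3 had -0.24, -0.26 and -0.23, from 44.8 ± 2.05 to 37.8 ± 1.87 CPM (SD, n = 4) in parental libraries. For BTG2, PHLDA3, POLH, TRIAP1, ZMAT3 and SUSD6 both tunicamycin libraries lay below both DMSO libraries in all 8 lines, as did 9.88% of all genes. Among the 6 tested survival and death genes, 3, 5 and 5 were called lower in parental, IGF2BP3 knockout and IGF2BP2 knockout cells. None was called higher. Of all genes, 14.3%, 17.6% and 20.9% were called lower in the same order.

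MDM2 was not called in any genotype, with log2 fold changes of -0.04, -0.01 and 0.03. Other members were called in 1 or 2 genotypes. AEN, a nuclease, had -0.20 and -0.19 in IGF2BP3 and IGF2BP2 knockout cells, RPS27L, a ribosomal protein relative, -0.18 and -0.30, and PLK2 -0.31 and -0.22, all called lower. None of the 3 was called in parental cells, where AEN had -0.12 (SE 0.0801), RPS27L -0.14 (SE 0.0686) and PLK2 -0.28 (SE 0.111), for PLK2 a value larger than the one called in IGF2BP2 knockout cells. PLK2 went from 189.6 ± 28.0 to 156 ± 24.3 CPM (SD, n = 4) in parental libraries and from 155 ± 16.3 to 124 ± 12.4 CPM (SD, n = 6) in IGF2BP3 knockout libraries. The wide parental spread went with the replicate number, at 206 and 220 CPM in DMSO replicate 1 and 168 and 164 CPM in replicate 2. Between libraries of the same line and replicate number, PLK2 was lower in tunicamycin in all 16 pairs (log2 change -0.47 to -0.13). The share of all genes lower in every pair was not computed. The difference of the tunicamycin effect between genotypes was tested directly for every member, and no member was called by edgeR or DESeq2 in any of the 3 interactions, in which 0.0% of all genes were called. At an unadjusted p under 0.05 there was 1 member with IGF2BP3 knockout (1.67% of all genes), 1 with IGF2BP2 knockout (1.4%) and 0 between the knockouts (1.82%). That member was CDKN1A, with interaction terms of -0.20 (SE 0.0669, unadjusted p 0.0086) and -0.24 (SE 0.069, unadjusted p 0.0027), both at an adjusted p of 1 by edgeR. The 2 terms share the parental libraries. The larger number of calls in the knockouts was not shown to be a larger response, and the knockout groups had 6 libraries per treatment against 4. The count in parental cells was 7 to 11 with 1 parental library left out, with 7 without replicate 2 of parental sample 2, and the count in IGF2BP2 knockout cells was 9 without B7 and 11 without G6. The parental count rose by over 1.5 times with a replicate block or with counts summed per line, as given in the closing section.

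**Figure D4:**
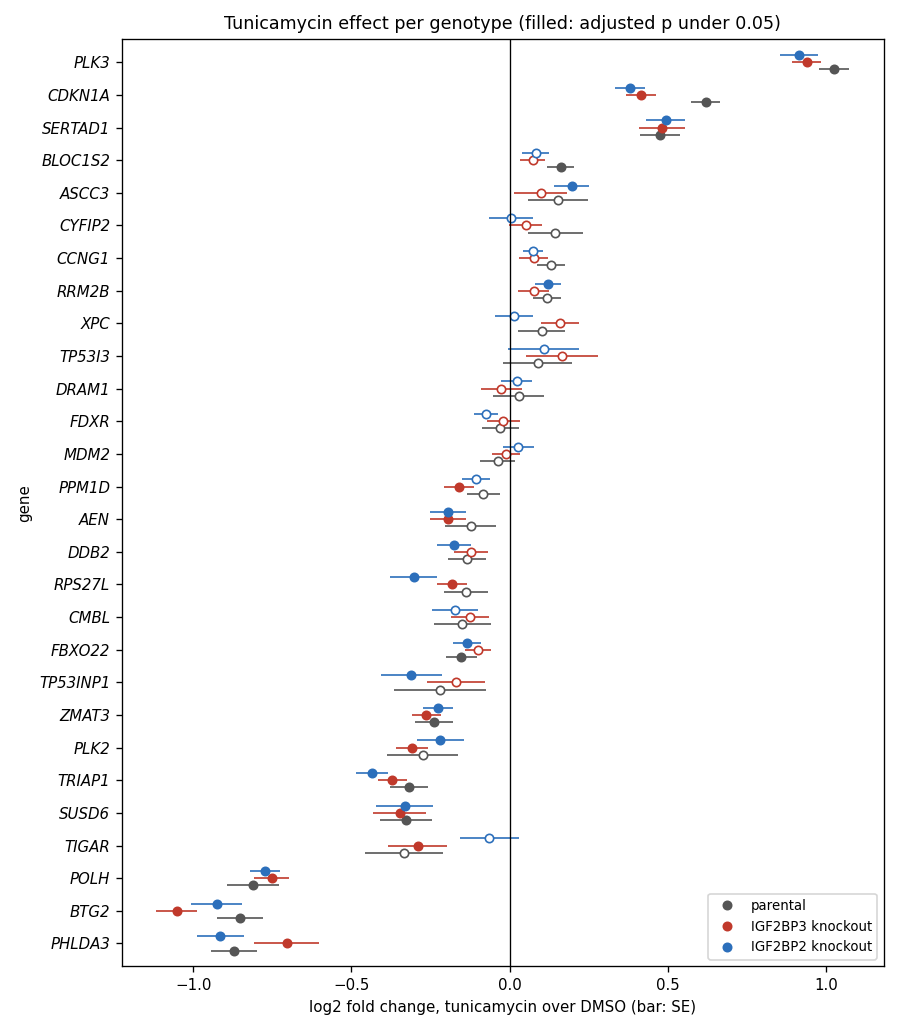
Log2 fold change of tunicamycin against DMSO (horizontal axis) for the 28 tested members (vertical axis) in parental, IGF2BP3 knockout and IGF2BP2 knockout cells, with bars of 1 SE and filled points where the edgeR adjusted p was under 0.05. PLK3 lay farthest to the right, at 1.02 in parental cells, and BTG2 farthest to the left, at -1.05 in IGF2BP3 knockout cells.

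Other parts of the p53 pathway were read from lists that do not overlap the 31 genes. None of the 23 tested genes on the list of p53 regulators was called by edgeR in a comparison of a knockout group with parental cells. In single clones, HIPK2, a kinase that phosphorylates p53, was lower in B7 (log2 fold change -0.39 in DMSO and -0.36 in tunicamycin) and SIRT1, a deacetylase of p53, was higher in F6 in DMSO (0.23). The share of all genes called was 6.21% and 4.13% in B7 in DMSO and tunicamycin, and 5.08% in F6 in DMSO. Among IGF2BP2 knockout clones in DMSO, 4 of the 23 differed, against 12.2% of all genes. In tunicamycin, MDM4, a p53 inhibitor related to MDM2, rose by 0.39, 0.43 and 0.43 on the log2 scale in parental, IGF2BP3 knockout and IGF2BP2 knockout cells. Among 11 tested apoptotic targets, TNFRSF10B, a death receptor, was the 1 gene called in the IGF2BP3 knockout in DMSO (0.23, edgeR adjusted p 0.04). Of all genes, 1.61% were called in that comparison. BBC3 and PMAIP1, which encode the BH3-only proteins PUMA and NOXA, rose under tunicamycin by 1.73 and 1.48 on the log2 scale in parental cells. Of all genes, 12.5% were called higher and 14.3% lower there. MDM4, BBC3 and PMAIP1 are examples, and the other genes of their lists are not described here for tunicamycin.

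Of 19 tested secreted, metabolic and stress targets, 5 were called higher and 3 lower in the IGF2BP3 knockout in DMSO. Of all genes, 1.61% were called in either direction and 0.515% higher. Among the 5 called higher, GDF15, a secreted stress cytokine, had a log2 fold change of 0.66 (SE 0.0614, edgeR adjusted p 7e-05). SESN1, an inhibitor of TORC1 signaling, had 0.42 (SE 0.095, adjusted p 0.0395 in the same edgeR fit). The 3 called lower are not named here. Under tunicamycin SESN1 fell by 0.70 on the log2 scale in parental cells, whereas SESN2, its stress-induced relative, rose by 4.15 and GADD45A, a growth arrest gene, by 2.14. Of 20 cell cycle genes that p53 represses through the DREAM complex, TTK and BUB1 were called higher in the IGF2BP3 knockout in DMSO (0.27 and 0.21) and none lower. Under tunicamycin, 8 of 19 tested fell in parental cells and 9 of 20 in each knockout, against the 14.3%, 17.6% and 20.9% of all genes called lower, with AURKA at -0.38, -0.35 and -0.39 on the log2 scale. In the same order 2, 1 and 0 rose, against 12.5%, 16.2% and 19.2%.

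Several listed genes overlap other genes in GENCODE release 29, and the strand setting of the counting is not given in the sources used here. Among the 31, CDKN1A, MDM2, XPC, TIGAR, PHLDA3, TP53I3, PLK3, POLH, DRAM1, FBXO22, TRIM22 and CYFIP2 share exon bases with at least 1 other gene, so their counts may include or lack reads of that neighbour. The extent differed. The largest overlap was 4 bases for POLH, 78 for PLK3, 80 for TP53I3 and 146 for CDKN1A. It was 1140 bases for XPC, 1711 for TIGAR and 1917 for FBXO22. RPS27L shares no exon bases with another gene there but has a close paralog, RPS27, and how reads matching both were counted is not given in the sources used here.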

How the data were processed

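Poly(A) RNA of 32 libraries was sequenced with a directional kit, per the labels' protocols. The authors deposited 1 table of read counts per gene. STAR 2.7.5c and hg38 are named in the submitters' processing notes; the counting tool, annotation and strand setting are not given in the sources used here. The counts were tested as deposited with edgeR 4.0.16 in R 4.3.3 (TMM normalization, filterByExpr, quasi-likelihood test, Benjamini-Hochberg adjustment over all genes tested, threshold 0.05). Genotype comparisons had no covariate, a line term entered the tunicamycin comparisons and the interactions, and clones were fitted together with 1 parental level. The SE is the one implied by the F statistic. The 31 genes and the other lists were chosen with earlier results of these data known. Called members were named in order of fold change, up to 10 in each direction, and up to 5 called genes of each other list could be named. Same-numbered libraries deviated together with a median r of 0.52, above 0.1 in 116 of 120 pairs. The criterion for a pairing asked for all 120, so the fits have no replicate block, and counts with the block, which mostly rose, stand in the closing section. No 2 replicate libraries differed by as little as sampling noise. The fits were tested on simulated counts. DESeq2 1.42.0 and the other alternatives are described in the closing section.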

Additional observations from a re-analysis of the deposited data

Results flagged for a closer look

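In 5 of 168 groups of 4 or 6 libraries, 1 library of a p53 target stood apart from the rest of its group by Dixon's criterion, which chance meets in about 1 in 20 groups. ZMAT3 stood at 35.0 CPM (34.96) in replicate 2 of parental sample 2 in tunicamycin, below the others, and PLK3 at 79.2 CPM in replicate 1 of that sample in tunicamycin, above them. SERTAD1 stood at 44.29 CPM in replicate 1 of parental sample 2 in DMSO. XPC stood at 24.83 CPM in replicate 1 of F6 in tunicamycin. AEN stood at 109.2 CPM in replicate 2 of A3 in DMSO.

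The knockout effect differed among clones of one knockout, by edgeR's test of the difference. For IGF2BP2 knockout clones in DMSO the adjusted p was 2.91e-06 for RRM2B, 0.000105 for CDKN1A, 0.000405 for PLK3, 0.00355 for FDXR, 0.0117 for MDM2, 0.0139 for PHLDA3, 0.0185 for TP53I3, 0.0324 for TP53INP1 and 0.0458 for XPC. In tunicamycin it was 0.000469 for CDKN1A, 0.000716 for RRM2B, 0.00153 for PLK3, 0.00591 for MDM2 and 0.0364 for RPS27L. For IGF2BP3 knockout clones it was 0.00782 for CDKN1A in DMSO and 0.0295 in tunicamycin.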

How the results depend on the processing

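Of 186 recomputed counts of called members, 50 moved by over 1.5 times, and the cause was not tested. No direction reversed. Of 88 called gene results, 40 kept their call in every alternative, and 1261 of 1420 recomputed gene results kept it. With the replicate block, the counts in DMSO were 10 for A3, 4 for D12, 12 for B7, 12 for F6, 2 for G6, 9 for IGF2BP3 knockout, 1 between the knockouts, and 15 and 6 among IGF2BP2 and IGF2BP3 knockout clones. In tunicamycin the block gave 4 for A3, 5 for B7, 11 for F6, 3 for IGF2BP3 knockout, 3 between the knockouts, and 8 and 5 among clones, and 18 for tunicamycin in parental cells. DESeq2 gave 3 for D12 in DMSO, 2 for A3 in tunicamycin, 2 and 2 among IGF2BP3 knockout clones in DMSO and tunicamycin, 1 and 1 for IGF2BP2 knockout, 10 and 2 for IGF2BP3 knockout, and 3 and 3 between the knockouts. All 32 libraries in one fit gave 2 for A3, 8 for F6 and 2 among IGF2BP3 knockout clones in tunicamycin, 1 and 1 for IGF2BP3 knockout in DMSO and tunicamycin, and 2 and 3 between the knockouts. A mean CPM of at least 1 gave 3 for D12 in DMSO, 8 and 8 for F6, 2 and 2 among IGF2BP3 knockout clones and 1 between the knockouts in DMSO. No filter gave 3 for A3 in tunicamycin, 2 among IGF2BP3 knockout clones in DMSO, 1 for IGF2BP3 knockout in tunicamycin, and 2 and 1 between the knockouts. Without the G6 controls the counts were 1 for IGF2BP2 knockout in DMSO, 2 between the knockouts in DMSO and 11 for tunicamycin in IGF2BP2 knockout. Summed per line they were 1 for IGF2BP3 knockout in DMSO and 17 for tunicamycin in parental cells. With 1 clone or library left out, the counts ranged in DMSO and tunicamycin over 2 to 6 and 0 to 1 for IGF2BP3 knockout, 0 to 1 and 0 to 1 for IGF2BP2 knockout, 0 to 2 and 0 to 2 between the knockouts, 2 to 4 and 0 to 2 for A3, 0 to 2 and 0 to 0 for D12, 3 to 9 and 2 to 7 for E4, 5 to 9 and 1 to 3 for B7, 3 to 6 and 2 to 6 for F6, 0 to 0 in both for G6, 5 to 11 and 3 to 6 among IGF2BP2 knockout clones, and 0 to 2 and 0 to 1 among IGF2BP3 knockout clones. For tunicamycin they were 7 to 11 in parental, 10 to 12 in IGF2BP3 knockout and 9 to 16 in IGF2BP2 knockout cells, and 0 to 0 for the interactions. Members with few counts, such as SPATA18 and EDA2R, could not be tested at this depth.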
